A study of Homo sapiens with 6 samples.

Results

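The heat shock proteins and their DNAJ partners were followed in K562 cells with and without induced ERG. Members were chosen by name: probe sets with a single annotated gene symbol that begins with DNAJA, DNAJB, DNAJC, HSPA, HSPB, HSPD1, HSPE1, HSPH1 or HSP90, or that is CCT followed by a number, or TCP1. Pseudogenes, the other non-coding genes of these names (6 probe sets of antisense and divergent transcripts), HSPBP1 and HSPBAP1 were left out. The rule gave 179 of 54613 probe sets, which belong to 76 of 19775 genes, and no filter on low values was applied, so all 76 entered the fit. Of the members, 18 rest on 1 probe set and none on more than 7. HSPA8, HSPA1A, HSPA1B, TCP1 and DNAJC25 had no probe set of their own: 18 probe sets with a symbol that begins like these families carry several symbols, and no gene was named from them, so these 5 genes were not analysed here.

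K562 is a human cell line derived from chronic myeloid leukemia, with erythroid and megakaryocytic features. ERG is a transcription factor of the ETS family. Each of 3 stably transfected pTRE-ERG clones (CL4, CL9 and CL46, named ERG3 cells in the labels) was hybridized after 8 days of daily doxycycline (DOX) at 1 µg/ml, as ERG-induced cells, and without DOX, as non-induced cells, so each group held 3 arrays and each clone 1 array per group. That duration is the one in the labels and the methods, and a legend of the study gives a shorter one. All 6 cultures carry the transgene, and the 3 clones were, per the design text, ones in which ERG was potently induced. Each clone descends from a single transfected cell, DOX was given only to the induced cultures, and effects of ERG and of DOX cannot be told apart. The ERG probe sets averaged a log2 difference (ERG-induced minus non-induced) of -0.76, with -1.35 in CL4, -0.80 in CL9 and -0.14 in CL46, so on average they did not show the induction that the labels state. The 4 probe sets, 0 of which were called, ranged from -1.93 to 0.72, the highest having 4.06 in CL46. Other genes did differ strongly between the arrays as labelled: FCER1G, an immune receptor adaptor, was higher in the induced array of all 3 clones, by 5.93 on average on the log2 scale. The sources used here do not say whether these probe sets can detect the transgene, and all directions that follow rest on the labels.

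Heat shock proteins keep other proteins folded. HSP70 proteins (HSPA genes) bind unfolded stretches in a cycle driven by ATP, in which DNAJ proteins deliver the client and speed ATP hydrolysis, and HSP110 proteins (HSPH1, HSPA4, HSPA4L) exchange the nucleotide so that the client is released. HSP90 proteins finish kinases, receptors and other clients, the chaperonins HSPD1 with HSPE1 (mitochondria) and CCT (cytosol) fold proteins inside a ring, and small heat shock proteins (HSPB genes) hold unfolded proteins. BCR-ABL, the fusion kinase of K562, is a known HSP90 client, and the heat shock factor HSF1 switches many of these genes on under stress.

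The deposited value of a probe set is its linear ratio to its own median over the 6 arrays, so a log2 ratio of 0 marks that median and levels of different genes cannot be compared. A gene's log2 ratio is the mean over its probe sets. A gene was called when it differed by a fold of 2 or more, a log2 difference of at least 1 in size, with an unadjusted p under 0.05 from limma. At an adjusted p (Benjamini-Hochberg, over all genes) under 0.05, 0 of the 76 genes and 0 of all 19775 genes passed, against 15 of the 76 (1 higher, 14 lower) and 2544 of all genes at an unadjusted p under 0.05. Every call below is therefore one at the unadjusted threshold. The spread is that between 3 clones, and since the RNA is from whole cultures, fewer cells with a transcript and less transcript per cell cannot be told apart.

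Of the 76 chaperone genes, 10 were called lower in ERG-induced cells and 0 higher. These were HSPA4L, DNAJC10, DNAJC15, DNAJC24, DNAJC13, HSPH1, DNAJA1, DNAJB14, HSP90B1 and HSPD1, with log2 differences from -1.81 to -1.04. They amount to 13.2% of the members, where 6.32% of all genes were called lower (1250 genes) and 3.12% higher (617 genes). The arrays are paired by clone. With the clone as a replicate block, 6 of the 76 were called lower, beside 1264 of all 19775 genes. Without CL46 the count was 3 (1005 of all genes), without CL9 it was 6 (1082), and without CL4 it was 11 (1305). The members' share thus came near that of all genes with the block and fell below it without CL46. By single probe sets, 18 of 179 were called lower (10.1%, against 8.16% of all probe sets) and 2 higher (1.12%, against 2.82%). The share by probe set lay closer to that of all probe sets than the share by gene lay to that of all genes. The 3 induced arrays lay entirely below the 3 non-induced arrays in 16 member genes (21.1%, against 13.6% of all genes) and entirely above in 3 (3.95%, against 7.98%).

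Most members moved little. The median log2 difference over the 76 genes was -0.14, with the middle 50% between -0.76 and 0.17, and over all genes it was -0.03. By clone, the member median was -0.17 for CL4, -0.23 for CL9 and -0.21 for CL46. Set against that of all genes, the member median stood at -0.11, and at -0.08 after quantile normalization. Centring the array medians shifts all genes alike, so it cannot change a median taken relative to all genes. Array centring and quantile normalization moved the median of all genes to 0.08 and 0.11, and the calls of the members to 1 higher and 7 lower and to 1 higher and 5 lower. Across all genes, array centring gave 749 genes higher and 999 lower, and quantile normalization gave 848 higher and 923 lower.

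**Figure D1:**
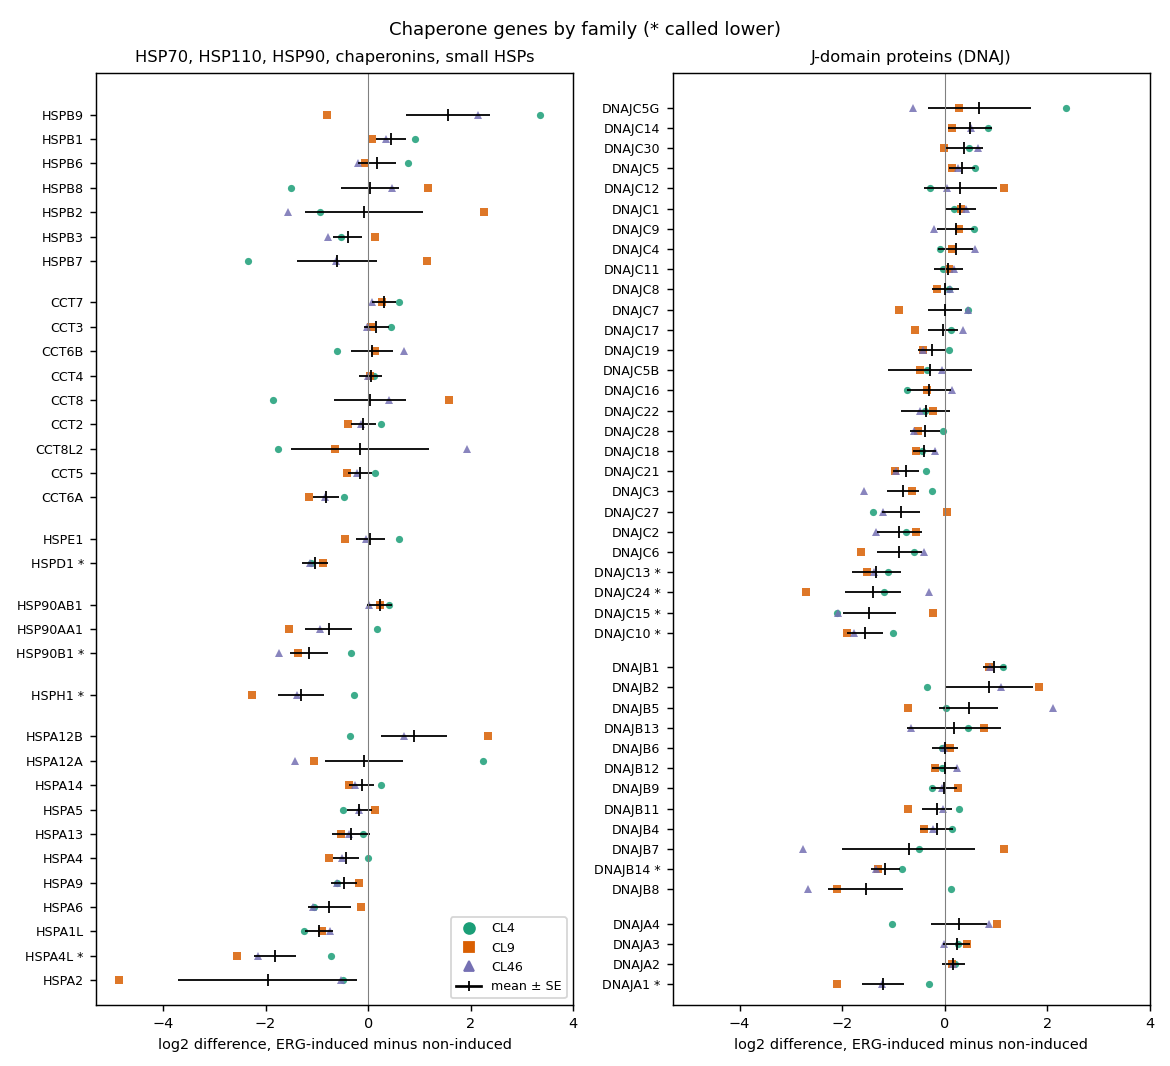
Log2 difference (ERG-induced minus non-induced) of the 76 chaperone genes by family, with CL4 as circles, CL9 as squares and CL46 as triangles. The tick and bar give the mean and its SE from the unpaired limma fit, which uses the spread of the 3 arrays within each group. The bar is therefore not the SE of the 3 clone differences shown. The 10 genes marked with an asterisk were called lower, and most of the other means lie within 1 log2 unit of 0.

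The HSP70 and HSP110 families held the steepest call. HSPA4L, an HSP110 protein known for its expression in testis and for a heat-induced response, had log2 ratios of 0.27 in CL4, 0.82 in CL9 and 0.74 in CL46 without DOX. With ERG induced the same clones gave -0.45, -1.75 and -1.42. The groups did not overlap, and the log2 difference was -1.81 (SE 0.41, adjusted p = 0.221), a 3.52-fold lower level. The step in CL4 was -0.72, against -2.56 in CL9 and -2.16 in CL46. Its probe sets differed, with -2.79 for the called probe set and -0.84 for the other. The call was lost when CL46 was left out, and when only probe sets of the plain _at kind were kept.

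HSPH1, the main HSP110 protein of the cytosol, moved alike in its probe sets. Its log2 ratios were 0.16, 1.07 and 0.21 in the non-induced cells of CL4, CL9 and CL46. In the induced cells they were -0.11, -1.20 and -1.18. Induced arrays all lay below non-induced arrays, narrowly in CL4, and the log2 difference was -1.31 (SE 0.44, adjusted p = 0.324). The 3 probe sets gave -1.05, -1.36 and -1.52, of which 2 were called. The gene was no longer called without CL9, without CL46, or with the clone as a replicate block.

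HSPA4, the third HSP110 gene, had a log2 difference of -0.43 (95% interval -1.06 to 0.20) and was not called, although 1 of its 4 probe sets was, at -1.31. The difference of HSPA4L minus that of HSPA4, a pair of the same role set side by side after the values were seen, came to -0.73 for CL4, -1.80 for CL9 and -1.64 for CL46.

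Of the 11 HSPA genes, 10 had a mean log2 difference below 0 (9 with array centring, 8 after quantile normalization), and 1 was called. Without either scaling, 57.9% of the members and 51.8% of all genes lay below 0, and 6.32% of all genes were called lower. The family median was -0.43, and relative to all genes -0.40, or -0.37 after quantile normalization. HSPA5 (BiP), the HSP70 protein of the endoplasmic reticulum (ER), stood at 0.24, -0.21 and 0.08 in the non-induced arrays of CL4, CL9 and CL46 and at -0.24, -0.08 and -0.09 in the induced ones. Its groups overlapped, and the log2 difference of -0.17 had a 95% interval of -0.78 to 0.43. HSPA9 (mortalin), the HSP70 protein of mitochondria, had a log2 difference of -0.47 (SE 0.25, adjusted p = 0.489), below 0 in all 3 clones and without overlap of the groups.

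HSPA1L, a HSP70 gene known mainly from testis, had probe sets of opposite sign. Its mean log2 difference was -0.97 (SE 0.27, adjusted p = 0.267), just short of the fold required. It averages a probe set at -2.23, which was called lower, and a probe set at 0.30, whose induced arrays all lay above its non-induced arrays. The only higher HSPA mean was that of HSPA12B, at 0.90 (SE 0.65), and the lowest was that of HSPA2 at -1.96 (SE 1.74), which rests on 1 probe set and on CL9 (-4.87, against -0.49 in CL4 and -0.52 in CL46).

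**Figure D2:**
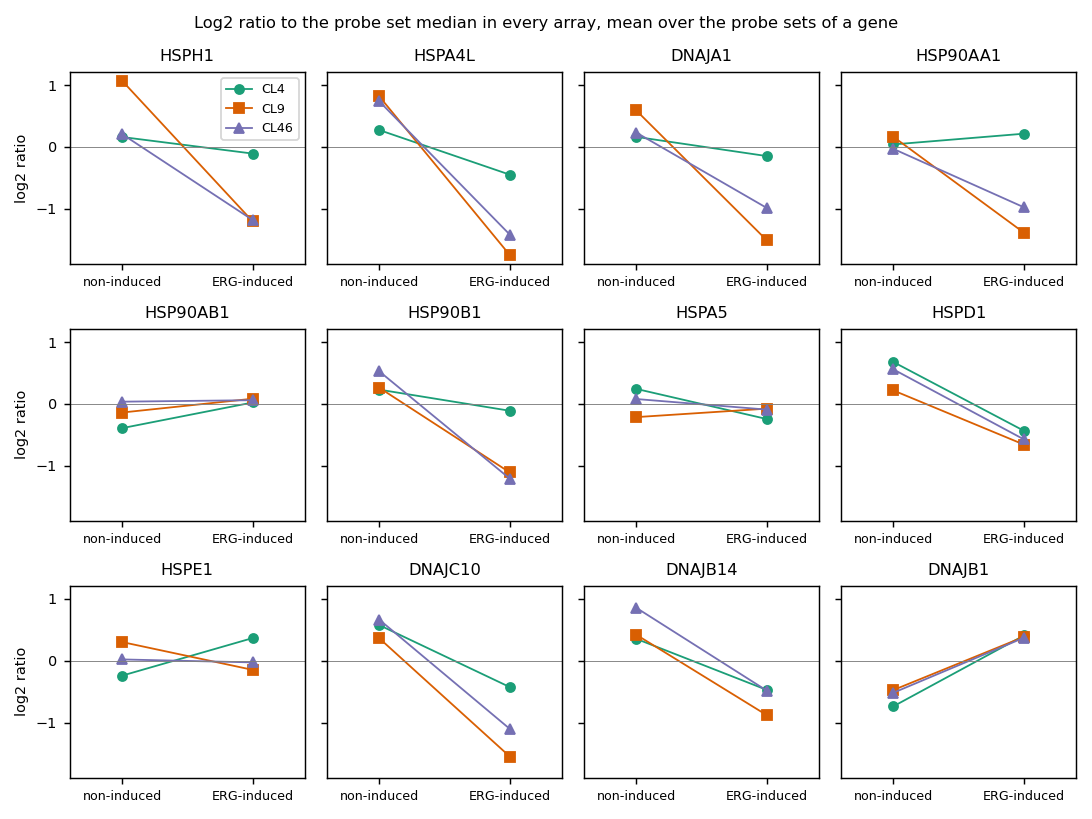
Log2 ratio of 12 chaperone genes in every array (vertical axis, mean over the probe sets of a gene), with a line joining the non-induced and the ERG-induced array of CL4 (circles), CL9 (squares) and CL46 (triangles). The lines of HSPH1, DNAJA1 and HSP90AA1 are nearly flat in CL4 and steep in CL9, those of HSPD1 run parallel, and those of DNAJB1 go up.

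The 3 HSP90 genes did not move together. HSP90AA1, the stress-inducible cytosolic form, had non-induced log2 ratios of 0.04 in CL4, 0.16 in CL9 and -0.03 in CL46. Induced values were 0.21, -1.39 and -0.98. CL4 therefore moved in the other direction from CL9 and CL46, the groups overlapped, and the log2 difference of -0.77 (SE 0.45, adjusted p = 0.544) was not called. Its 4 probe sets lay close to each other, from -0.89 to -0.64, and the gene was called lower once CL4 was left out.

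HSP90AB1, the constitutive cytosolic form, had a log2 difference of 0.22 (95% interval -0.37 to 0.81). Its non-induced log2 ratios in CL4, CL9 and CL46 were -0.39, -0.14 and 0.04, and its induced ones 0.02, 0.08 and 0.06, so the groups overlapped. Set side by side after the values were seen, the difference of HSP90AA1 minus that of HSP90AB1 came to -0.24 for CL4, -1.77 for CL9 and -0.97 for CL46.

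HSP90B1 (GRP94), the HSP90 protein of the ER, was called lower. It had log2 ratios of 0.23, 0.26 and 0.53 in the non-induced arrays of CL4, CL9 and CL46, and of -0.11, -1.11 and -1.21 in the induced ones. The groups did not overlap, and the log2 difference was -1.15 (SE 0.37, adjusted p = 0.309), with the smallest change again in CL4 at -0.34. Both of its probe sets are of the _x_at kind, which the maker marks as open to cross-hybridization. The other 2 probe sets annotated to HSP90B1 also carry the symbol of a microRNA gene and were not used. The call was lost without CL9, without CL46, after quantile normalization and with a pseudocount.

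Among the DNAJ proteins, 6 of 43 genes were called lower and 0 higher, where 6.32% and 3.12% of all genes were. By probe set, 11 of 111 were called lower and 2 higher, where 8.16% and 2.82% of all probe sets were. DNAJA1, the most general J-domain partner of cytosolic HSP70, resembled HSPH1. Without DOX, CL4, CL9 and CL46 had log2 ratios of 0.16, 0.59 and 0.23, and with ERG induced -0.15, -1.51 and -0.99. No induced array reached the non-induced ones, and the log2 difference was -1.21 (SE 0.41, adjusted p = 0.323). By clone it was -0.31 for CL4, -2.10 for CL9 and -1.22 for CL46. Both probe sets were alike (-1.29 and -1.13), and the call was lost without CL9, without CL46, and with the clone as a replicate block. The other DNAJA genes, DNAJA2, DNAJA3 and DNAJA4, had means from 0.17 to 0.28.

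DNAJB1 (HSP40), the J-domain protein most known for its rise after heat shock, went the other way. Its non-induced arrays in CL4, CL9 and CL46 had log2 ratios of -0.73, -0.47 and -0.51. The induced arrays lay close together at 0.41, 0.39 and 0.38. The groups were apart in every clone, and the log2 difference was 0.96 (SE 0.23, adjusted p = 0.227), a 1.95-fold higher level that missed the fold of 2. DNAJB1 was called higher when each array was centred on its median, after quantile normalization, and without CL9 or without CL46. Its probe sets gave 1.48, which was called higher, and 0.45. The difference of DNAJA1 minus that of DNAJB1, a pair chosen after the values were seen, came to -1.45 for CL4, -2.96 for CL9 and -2.11 for CL46.

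DNAJB14, a J-domain protein anchored in the ER membrane, was lower in every clone. From 0.36, 0.42 and 0.86 in the non-induced arrays of CL4, CL9 and CL46 it came to -0.47, -0.88 and -0.48 in the induced ones. The log2 difference was -1.16 (SE 0.28, adjusted p = 0.231), and its 3 probe sets lay between -1.33 and -0.99. The call was kept in 13 of 14 alternatives that retained the thresholds or eased the fold, and was lost after quantile normalization. The other 11 DNAJB genes included none called. DNAJB8, known from testis, had -1.54 on 1 probe set, but 0.12 in CL4.

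DNAJC10 (ERdj5), a J-domain reductase of the ER that opens disulfide bonds of proteins bound for degradation, had the smallest p of all 76 genes. Its log2 ratios were 0.58, 0.37 and 0.67 in the non-induced arrays of CL4, CL9 and CL46. They were -0.42, -1.55 and -1.10 in the induced arrays. The groups were well apart, and the log2 difference was -1.56 (SE 0.35, adjusted p = 0.219), a 2.95-fold lower level. All 5 probe sets lay below 0, from -2.66 to -0.83, and 3 of them were called. It too was kept in 13 of 14 alternatives, and was lost without CL46.

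The other DNAJC calls were less even. DNAJC13 (RME-8), which acts at endosomes, went from 0.55, 0.98 and -0.26 in CL4, CL9 and CL46 to -0.56, -0.54 and -1.63. The log2 difference was -1.34 (SE 0.48, adjusted p = 0.343), with groups that did not overlap and with -1.11 in CL4, -1.52 in CL9 and -1.37 in CL46. In CL46 that mean joins probe sets of opposite direction, at -4.56, -2.14 and 2.58, while all 3 probe sets were below 0 in CL4 and CL9. DNAJC15 (MCJ), a protein of the mitochondrial inner membrane known to restrain respiratory complex I, had 0.86, 0.32 and 0.37 without DOX and -1.24, 0.09 and -1.72 with it in the same order of clones. Its groups did not overlap, and it had a log2 difference of -1.47 (SE 0.52, adjusted p = 0.338), made of -2.10 in CL4, -0.23 in CL9 and -2.09 in CL46. Leaving out CL4 or CL46, or taking the clone as a replicate block, ended the call.

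The probe sets of DNAJC15 went different ways. Of its 3 probe sets, 1 was lower in all clones and called at -2.23, with its lowest value in CL9 (-3.55). Another gave 2.79 in CL9 against -3.45 in CL4 and -3.61 in CL46, and the third stood at 0.07 in CL9. DNAJC24 (DPH4), an enzyme partner in making diphthamide on elongation factor EEF2, had log2 ratios of 1.24, 1.30 and 0.01 in CL4, CL9 and CL46 without DOX and of 0.07, -1.41 and -0.29 with it. The log2 difference was -1.39 (SE 0.55, adjusted p = 0.378), but the groups overlapped, since the non-induced CL46 array lay below the induced CL4 array, and 0 of its 2 probe sets was called. Its call was lost in 7 of 14 alternatives, among them leaving out CL4 or CL9 and the replicate block, and DNAJC13 was lost in 6 of 14, also among them leaving out CL4 or CL9.

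Of the DNAJC genes that were not called, DNAJC21, which helps to mature the large ribosomal subunit, came nearest by p. It had a log2 difference of -0.76 (SE 0.26, adjusted p = 0.323), the same sign in all clones, and a range over 7 probe sets from -2.41 to 0.82. DNAJC3 (p58IPK), an ER protein that restrains the kinase EIF2AK3, had -0.82 (SE 0.32, adjusted p = 0.369). The 27 DNAJC genes had a median of -0.29, and relative to all genes -0.26, or -0.23 after quantile normalization. The medians of the 4 DNAJA genes and the 12 DNAJB genes were 0.20 and -0.01. The latter turned to 0.10 with array centring and to 0.12 after quantile normalization.

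**Figure D3:**
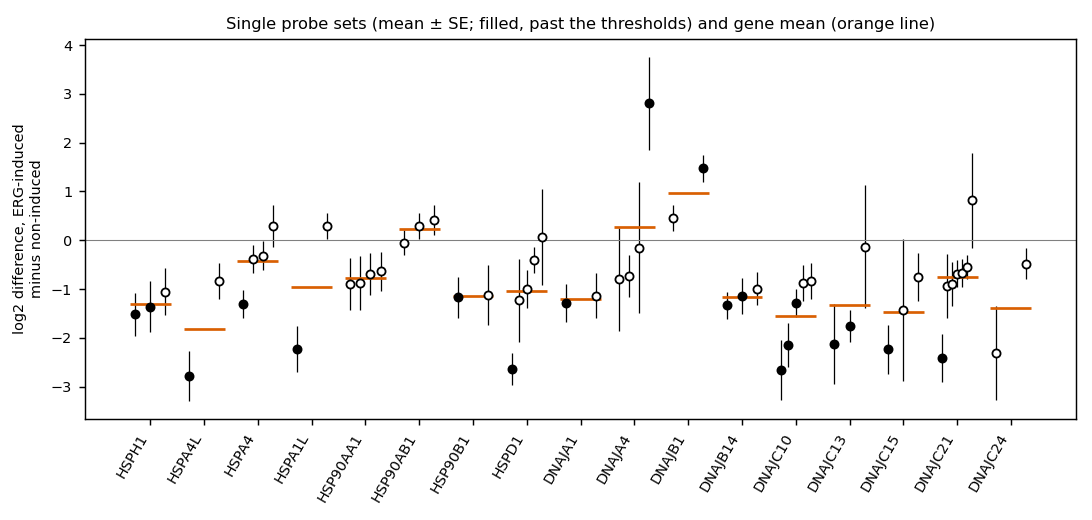
Log2 difference (ERG-induced minus non-induced) of every single-symbol probe set of 17 chaperone genes, as points filled where the probe set was called. Bars give the SE from the unpaired limma fit with 3 arrays per group, and the orange line is the gene mean. Probe sets of HSPH1, HSP90AA1, HSP90B1, DNAJA1 and DNAJB14 sit together, while those of HSPD1, HSPA1L, DNAJA4 and DNAJC21 spread over more than 2 log2 units.

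The mitochondrial chaperonin split between its parts. HSPD1 (HSP60), which forms the ring, had log2 ratios of 0.68, 0.22 and 0.56 in the non-induced arrays of CL4, CL9 and CL46 and of -0.44, -0.66 and -0.57 in the induced arrays. The 3 clones fell by similar amounts (-1.11, -0.88 and -1.13), and the log2 difference was -1.04 (SE 0.25, adjusted p = 0.234), close to the fold of 2. Of its 5 probe sets, 1 was called, at -2.64. The 2 probe sets of the _s_at kind gave -0.99 and -0.40, and the remaining 2 gave -1.23 and 0.06. In the _s_at probe sets the clones were less alike, with -0.25 and -0.06 in CL4 against -1.85 and -0.63 in CL9. With the median over probe sets in place of the mean, or with either scaling, HSPD1 was no longer called. The call was also lost without CL46.

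HSPE1 (HSP10), the lid of that ring, had a log2 difference of 0.04 (95% interval -0.66 to 0.73) on 1 probe set. Non-induced values were -0.24, 0.30 and 0.02 in CL4, CL9 and CL46, and induced values 0.37, -0.14 and -0.02, so the groups overlapped. HSPD1 minus HSPE1, again a pair chosen after the values were seen, came to -1.72 for CL4, -0.43 for CL9 and -1.08 for CL46. These genes lie head to head on chromosome 2: the promoter window of HSPE1 shares 204 bases with the window at the first of 2 annotated HSPD1 starts.

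The cytosolic chaperonin held 0 calls among its 9 measured CCT genes, where 6.32% of all genes were called lower and 3.12% higher. In families this small, as also in the 7 HSPB genes below, 0 calls lies near those shares. CCT6A, a ring subunit, had the lowest value at -0.82 (SE 0.25, adjusted p = 0.294), with both probe sets near the mean (-0.86 and -0.79) and all clones below 0. It was called when CL4 was left out. Subunits CCT2, CCT3, CCT4, CCT5 and CCT7 lay between -0.17 and 0.31. The subunit CCT8 had a mean of 0.04 from unlike probe sets. The first stood at -0.41 and was lower in all clones without overlap of the groups. The second stood at 0.49, with -3.64 in CL4 and 3.89 in CL9. The 7 HSPB genes held 0 calls as well, with HSPB1 (HSP27) at 0.45 (95% interval -0.26 to 1.17). HSPB9, known from testis, stood at 1.56 (SE 0.82), with -0.80 in CL9 against 3.34 in CL4. CRYAB, a small heat shock protein without an HSPB symbol, is given with the related lists.

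Groups by place hold few genes each, and their counts stand beside the 6.32% of all genes called lower. Of 8 measured genes in the ER list (HSPA5, HSPA13, HSP90B1, DNAJB9, DNAJB11, DNAJC1, DNAJC3, DNAJC10 and the unmeasured DNAJC25), HSP90B1 and DNAJC10 were called lower, and the median was -0.26. DNAJB14, which was called lower too, is an ER membrane protein that this list does not hold, so neither the count nor the median includes it. No other member outside the list was sorted to the ER here, so naming this called gene does not show that the count is too low. Of 9 mitochondrial members, HSPD1 and DNAJC15 were called lower, and the median was -0.25. Of 8 measured members known to be stress-inducible, 3 were called lower (HSPH1, HSPA4L and DNAJA1), and the median was -0.77. The others measured were HSPA6, HSPB1, DNAJB1, DNAJB4 and HSP90AA1. HSPA1A, HSPA1B and HSPA8 are listed too but had no probe set of their own, so the median does not cover these HSP70 genes. In this group CL4 had a median of -0.06, against -0.98 in CL9 and -1.01 in CL46. DNAJB1 and HSPB1 were the members of the group with a mean above 0. Relative to all genes the stress-inducible median was -0.74, and -0.68 after quantile normalization.

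**Figure D4:**
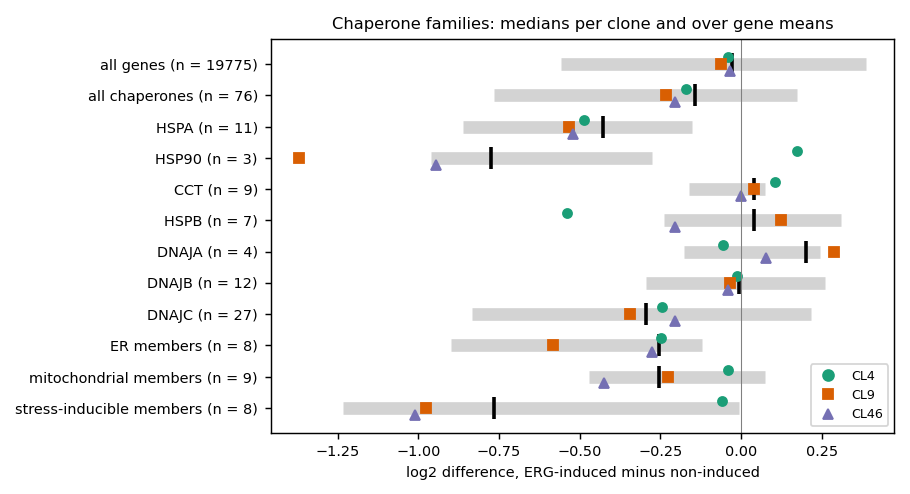
Median log2 difference (ERG-induced minus non-induced) of all genes, all chaperones, the larger families and the groups by place or stress response. Symbols give the median in CL4 (circles), CL9 (squares) and CL46 (triangles), the black tick the median of the gene means and the grey bar their middle 50%; in the stress-inducible and HSP90 groups CL4 sits apart from CL9 and CL46.

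Many stress-inducible genes carry the heat shock element, the binding site of heat shock factors, and ER chaperones the ER stress element. Promoters of 250 bases before to 50 bases after each start were taken from RefSeq (GRCh38.p14) and matched 68 of the 76 members by symbol, 9 of the 10 called genes among them. A strict heat shock element was searched on both strands, as 3 alternating units of GAA and TTC with 2 bases between them. It was held by 0.490% of all 35116 promoters of that length and by 6 of the 89 promoters of the members (6.74%), each in a different gene. Counted by gene, these were 0.608% of all genes and 6 of the 68 members. Overlapping matches were joined. The sequences are shown to let the called and uncalled carriers be compared, with the element in capitals:
HSPA6 (chr1:161524459-161524485, + strand, 74 bases before the start): ggaaaggTTCGCGAAAGTTCgcggcgg
HSPD1 (chr2:197500061-197500090, - strand, 245 bases before the later start): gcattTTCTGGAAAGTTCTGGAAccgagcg
HSP90AB1 (chr6:44247771-44247797, + strand, 165 bases before the start): gagcaggTTCTGGAAGATTCatgggct
HSP90AB1 (chr6:44247824-44247850, + strand, 112 bases before the start): gagattgTTCTGGAAGCTTCtggattc
DNAJB6 (chr7:157336866-157336892, + strand, 131 bases before the start): gagccgaGAACCTTCGCGAAggtgggg
DNAJA1 (chr9:33025269-33025295, + strand, 3 bases after the start): ccgggcgGAACTTTCCAGAAcgctcgg
HSP90AA1 (chr14:102087113-102087139, - strand, 88 bases before the start): agggttcTTCCGGAAGGTTCgggaggc

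The carriers did not move together. Their log2 differences were -1.21 for DNAJA1, -1.04 for HSPD1, -0.77 for HSP90AA1, -0.76 for HSPA6, 0.01 for DNAJB6 and 0.22 for HSP90AB1. DNAJA1 and HSPD1 were called lower, and HSP90AB1, the gene with matches at 2 places, was not called. DNAJB1, HSPH1 and HSPA4L held no match of these letters in their windows. The ETS motif CCGGAAGT, the letters ERG and its relatives are known to bind, was on either strand in 4.14% of all promoters and in 6.74% of the members' promoters, which is 4.95% of all genes and 6 of the 68 members, DNAJA1 being the only called gene among the 6.

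The ER stress element, CCAAT and CCACG with 9 bases between them, was in 0.0769% of all promoters, on either strand. Of the 89 promoters of the members it was in 2, those of HSPA5 and HSP90B1, the latter at 2 places, the second of them on the opposite strand:
HSPA5 (chr9:125241386-125241414, - strand, 66 bases before the start): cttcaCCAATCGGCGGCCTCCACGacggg
HSP90B1 (chr12:103930211-103930239, + strand, 194 bases before the start): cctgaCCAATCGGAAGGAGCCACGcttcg
HSP90B1 (chr12:103930316-103930344, + strand, 89 bases before the start): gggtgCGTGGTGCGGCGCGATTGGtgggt
These ER chaperones share the element, and their values were -0.17 for HSPA5 and -1.15 for HSP90B1.

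The clones differed from each other. Over the 76 genes, the log2 differences of CL9 and CL46 had a correlation of 0.33, those of CL4 and CL46 of 0.28 and those of CL4 and CL9 of -0.00, where genes are not independent replicates and each clone has 1 array per group. Over all genes the same pairs gave 0.14, 0.11 and 0.12. The sign was shared by 53, 46 and 41 of the 76 members. Members below 0 in all 3 clones numbered 24 and those above 0 in all 3 numbered 8. Together they make 42.1% of the members, close to the 40.2% of all genes with the same sign in all 3 clones.

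**Figure D5:**
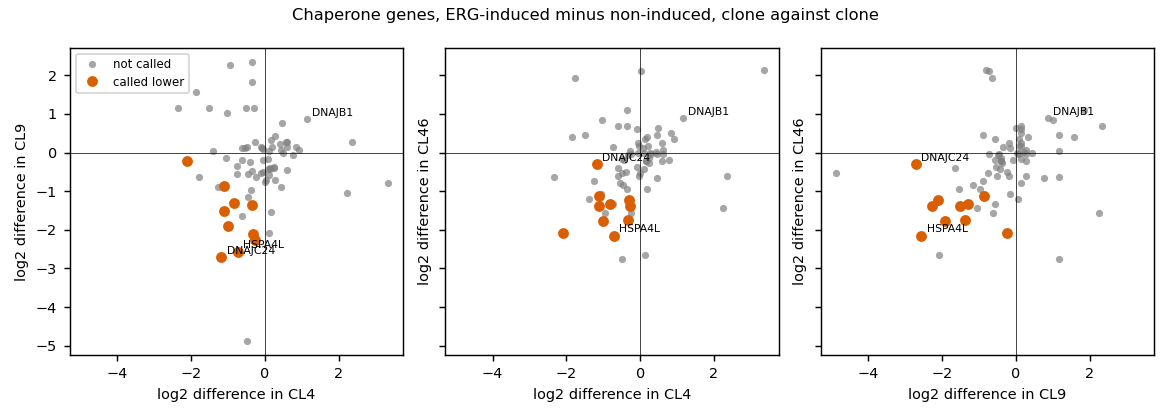
Log2 difference (ERG-induced minus non-induced) of the 76 chaperone genes in one clone against another, with the 10 called genes in orange. All orange points lie below 0 on both axes of each panel, and the grey points scatter around 0 on both axes.

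Probe sets of a gene also differed. Of 58 members with more than 1 probe set, 31 had all of them on the same side of 0 (22 below, 9 above), and in 10 they spanned over 2 log2 units. The 107 probe sets of the plain _at kind (designed to be unique to their target) held 14 of the 18 lower calls and had a median of -0.27 (all such probe sets, -0.12). The 58 of the _s_at kind held 1 lower call and 1 higher call, with a median of -0.13 (all such, -0.05). The 8 of the _x_at kind held 2 lower calls, with a median of -0.60 (all such, -0.02). The 6 with names that end in _a_at held 1 lower call, with a median of -0.05 (all such, -0.06). Of all probe sets of any kind, 8.16% were called lower and 2.82% higher, and these shares were not counted by kind. The higher call outside DNAJB1 was a DNAJA4 probe set at 2.80 (SE 0.96, adjusted p = 0.317), whose clones gave 3.94, 3.81 and 0.66, while the other 3 probe sets of DNAJA4 lay between -0.80 and -0.16.

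The partners and regulators of the chaperones moved little as groups. Counts of calls in these lists stand beside 6.32% of all genes called lower and 3.12% called higher. Among 6 measured genes of the heat shock factors and their regulators, 1 was called lower: HSF2BP, a meiotic recombination protein that binds HSF2, at -1.56. HSF1 itself had 0.40 (SE 0.35, adjusted p = 0.686), and HSF2 had no probe set with its symbol alone. HSF4, on 1 probe set, had 1.28 (SE 0.55, adjusted p = 0.409). It was higher in all 3 clones without overlap of the groups, but missed the p threshold. Of 20 HSP70 co-chaperones, BAG2, an inhibitor of the ubiquitin ligase STUB1, and SEC63, the J-domain protein of the ER translocon, were called lower at -1.28 and -1.70. Of 21 HSP90 co-chaperones, SUGT1, which helps to assemble kinetochores, was called lower at -1.57. The medians of these lists were 0.07, 0.05 and -0.05.

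Similar counts came from the compartments, and the same shares of all genes (6.32% lower, 3.12% higher) stand beside them. Of 14 mitochondrial chaperones and proteases, TIMM23, the import channel of the inner membrane, was called lower at -1.75, with -3.06 in CL46 and -0.31 in CL9. Of 23 genes of ER folding and the unfolded protein response, SEL1L, the scaffold of ER-associated degradation, was called lower at -1.75 (SE 0.26, adjusted p = 0.190). Its clones CL4, CL9 and CL46 gave -1.43, -2.03 and -1.79. The median over these 23 genes was 0.04. Prefoldin and the tubulin cofactors held 0 calls in 12 genes. In the list of other stress chaperones, 2 of 7 were called higher: CRYAB, a small heat shock protein of the lens and muscle, at 1.31, and CLU, a secreted chaperone, at 1.21.

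Markers of other cell types and an RNA control also differed between the groups. Counts of called markers stand beside 3.12% of all genes called higher and 6.32% called lower. Of the lineage markers, 0 of 5 erythroid genes, 2 of 6 megakaryocyte genes (ITGB3 and GP1BA) and 2 of 7 myeloid genes (TYROBP and FCER1G) were called higher, and 1 of 7 fibroblast genes (COL1A1) was called lower. The median log2 differences of these lists were 0.31, 1.59, 0.63 and 0.33. The ribosomal RNA control probe sets were higher in the induced array of every clone, by 1.21 in CL4, 0.59 in CL9 and 0.82 in CL46 (mean log2 difference 0.87, SD 0.32, n = 3). The part of either in the chaperone values was not tested. Since ratios hold no level, it cannot be seen which of these markers were present at all, nor can K562 be checked against its defining genes.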

How the data were processed

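Total RNA of 6 cultures (3 clones, with and without DOX) was put on Affymetrix U133 Plus arrays. The deposited values are linear ratios from GeneSpring, relative to a probe set's own median across arrays: that median was 1 within 1e-05 for 50737 of 54675 probe sets, and under 1 for 3938, of which 4 are members. The sources used here give no background correction, array scaling or brightness, so signal over background is unknown and the number of arrays limits the precision. Value columns of no mapped sample numbered 0.

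Left out were 62 control probe sets. The platform annotation gives 1 gene symbol to 41091 of the remaining 54613 probe sets, several to 1801 and none to 11721, and 41037 were matched by gene ID to RefSeq (GRCh38.p14). Ratios were turned to log2 and averaged per gene, which gave 19775 genes. Induced and non-induced arrays were compared by limma (version 3.58.1; lmFit and eBayes, no intensity trend, two-sided, no block) under R 4.3.3 with data.table (version 1.17.8), and p-values were adjusted by Benjamini-Hochberg across all genes, or all probe sets. Calls used the study's fold of 2 with an unadjusted p under 0.05. No floor was set. Medians, motifs and plots came from Python 3.11.15 (pandas 2.3.3, matplotlib 3.10.9).

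The members and lists were chosen with earlier results of these data known. Named by rule were the called members, the 3 members of smallest p in each family, a set of well-known chaperones, and the called genes of the related lists with HSF1 and HSF2; other genes were named after their values were seen. The lists were heat shock factors and regulators, HSP70 co-chaperones, HSP90 co-chaperones, prefoldin and tubulin cofactors, mitochondrial chaperones and proteases, ER folding and the unfolded protein response, other stress chaperones, and erythroid, megakaryocyte, myeloid and fibroblast markers.

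The shared clone pairs the arrays. The deviations from the group mean of a clone's arrays correlated at 0.04 in CL4, 0.05 in CL9 and 0.03 in CL46 over all genes and at 0.20, 0.14 and 0.48 over the members. Alternatives were the clone as a replicate block, scalings, a pseudocount, filters on probe sets, no moderation, other thresholds and leaving out each clone. The fit was tested on simulated data.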

Additional observations from a re-analysis of the deposited data

How the results depend on the processing

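The thresholds, the scaling and single clones set how many chaperones were called. With the clone as a replicate block, in which the arrays of a clone are paired, 6 genes were lower instead of 10 (DNAJA1, DNAJC15, DNAJC24 and HSPH1 were lost) and 0 higher, and 14 probe sets were lower and 3 higher. At an adjusted p under 0.05, 0 genes were lower, and 0 probe sets were higher or lower. Under quantile normalization 5 genes were lower. Array centring, quantile normalization, gene values centred on their median (an alternative chosen after seeing the data) and a fold of 1.5 each gave 1 gene higher, which was DNAJB1, and the last of these 29 probe sets lower. Of all 19775 genes, 1264 were lower and 661 higher with the block, and 923 and 848 under quantile normalization. Over all genes, array centring gave 999 lower and 749 higher, gene centring gave 1087 and 691, and the fold of 1.5 gave 1750 and 783. No count over all probe sets stands beside the probe set counts given here. Dropping probe sets of median below 1, keeping only the plain _at kind, or fitting without moderation each left 1 probe set higher. The member median was -0.039 with array centring, 0.026 after quantile normalization and -0.075 with gene centring, against -0.14. Leaving out each clone in turn gave 3 to 11 genes lower, 0 to 2 higher, 11 to 25 probe sets lower, 2 to 3 higher and a median of -0.23 to -0.13. Among all genes, 1005 were lower and 678 higher without CL46, 1082 and 691 without CL9, and 1305 and 720 without CL4. Without CL46, 3 genes were lower (DNAJB14, DNAJC13 and DNAJC24). Without CL9 there were 6 lower and 2 higher (DNAJB1 and HSPB9). Without CL4 there were 11 lower, of which 7 belonged to the 10. No named gene changed sign while called. Over the named genes, 446 of the values under alternatives kept their side of the thresholds, 71 lost a call and 15 gained one.

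The 3 arrays per group and the unknown brightness are the main limits: a probe set near background cannot be told from a bright one, and a missed threshold does not show that a gene was unchanged.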
